A study of Mus musculus with 5 samples.

Results

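Of 32 genes reported in other tissues as targets of the microRNA miR-9, 26 had a p-value in cultured mouse mast cells. At a Benjamini-Hochberg adjusted p under 0.05, 1 of the 26 passed: Lifr, a cytokine receptor subunit, which was lower in the miR-9 line. Of all rows with a p-value, 0.166% passed as lower and 0.245% as higher. Lifr did not pass with the Benjamini-Yekutieli procedure (adjusted p = 0.177). The 32 genes were taken as a list of symbols, drawn up with earlier results of these data known. They were looked up in the authors' deposited table of 25549 gene rows. A row was present for 31 of them, Onecut1 having none, and a p-value for 26. Bone marrow-cultured mast cells are mast cells grown out of bone marrow, here over 6 to 8 weeks with recombinant interleukin-3 at 50 ng/mL. They came from C57BL/6 mice matched for age and sex; no ages are stated in the labels. RNA of all 5 samples was treated with heparinase I (40 U, 2 hours) and depleted of ribosomal RNA before stranded libraries were made. All mice carried Cpa3-Cre, a Cre recombinase driven by the promoter of Cpa3, a mast cell carboxypeptidase gene. The control group carried nothing further (Cpa3-Cre, n = 2 samples), and the other group also carried the miR-9∆fl/∆fl allele (Cpa3-Cre;miR-9∆fl/∆fl, n = 3 samples, called the miR-9 line).

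The labels state neither what the allele does to miR-9 nor whether a group's samples are separate mice, so what the p-values weigh is sample-to-sample spread, which may be technical. A hairpin gene model at the Mir9-1 locus, Gm25641, stands at a log2 fold change of 4.50 by the authors' deposited table (Benjamini-Hochberg adjusted p = 8.74e-18), and the hairpin lies on the strand opposite to that model. The longer transcripts that span the hairpin loci stood below 0 by the authors' deposited table and were not called: Gm3764 at Mir9-1 (-0.15, p = 0.771), C130071C03Rik at Mir9-2 (-0.61, p = 0.168) and AI854517 at Mir9-3 (-1.06, p = 0.0339, adjusted p = 0.553). Total RNA libraries of 50-base reads do not measure the mature microRNA. Fold changes are the authors', positive where the miR-9 line was higher, and come without standard errors. Adjusted p-values were computed from the authors' p-values over all 24071 rows that have one, and a gene was called at an adjusted p under 0.05. In RNA from a whole culture, fewer cells of a type and less RNA per cell cannot be told apart.

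A microRNA guides Argonaute proteins to messenger RNAs that pair with its seed, the bases near its 5′ end, and the paired messenger is translated less and decays faster. miR-9 is best known from the nervous system, where it restrains progenitor genes such as Hes1, Nr2e1 and Onecut2 and takes part in a circuit with the repressor REST. In blood and immune cells its reported targets include Foxo1, Foxo3 and Prdm1. The 2 arms of the hairpin give different mature microRNAs, shown here from RefSeq (GRCm38.p6) with the seed, bases 2 to 8, in capitals, since every target site described afterwards is a match to one of these seeds.
miR-9-5p: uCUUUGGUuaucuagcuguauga
miR-9-3p: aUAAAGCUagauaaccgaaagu

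The longest 3′ untranslated region (3′ UTR) annotated for each gene in GENCODE M21 (GRCm38) was searched on the transcript strand for 3 kinds of site. For miR-9-5p the 8-base site is ACCAAAGA, and the 7-base sites are ACCAAAG and CCAAAGA, which both lie inside it. For miR-9-3p they are AGCTTTAA, AGCTTTA and GCTTTAA. Each match was counted once, under its longest form. An 8-base site of miR-9-5p lay in 13 of the 32 genes, or 40.6%, beside 4.12% of the 3′ UTRs of 21020 genes and 6.56% of 6921 genes whose 3′ UTR length lay between the lower and upper quartile of the listed genes (1312 and 4016 bases). A 7- or 8-base site of miR-9-5p lay in 28 of 32 (87.5%), beside 20.3% of all genes and 32.6% of those of like length. For miR-9-3p the count was 13 of 32 (40.6%), beside 17.4% and 28.6%. An 8-base miR-9-3p site lay in 3 of 32 (9.38%), beside 4.03% and 6.5%. Among the 16 listed genes whose own 3′ UTR fell within that length range, 5 (31.2%) had an 8-base miR-9-5p site, 14 (87.5%) a 7- or 8-base one, 8 (50%) a 7- or 8-base miR-9-3p site and 1 (6.25%) an 8-base one. No test was run on these shares. The list holds genes already reported as miR-9 targets, so a larger share with sites is not an independent result. Itga6, Meis2, Nrp1 and Ppara had no 7- or 8-base site of either arm.

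**Figure D1:**
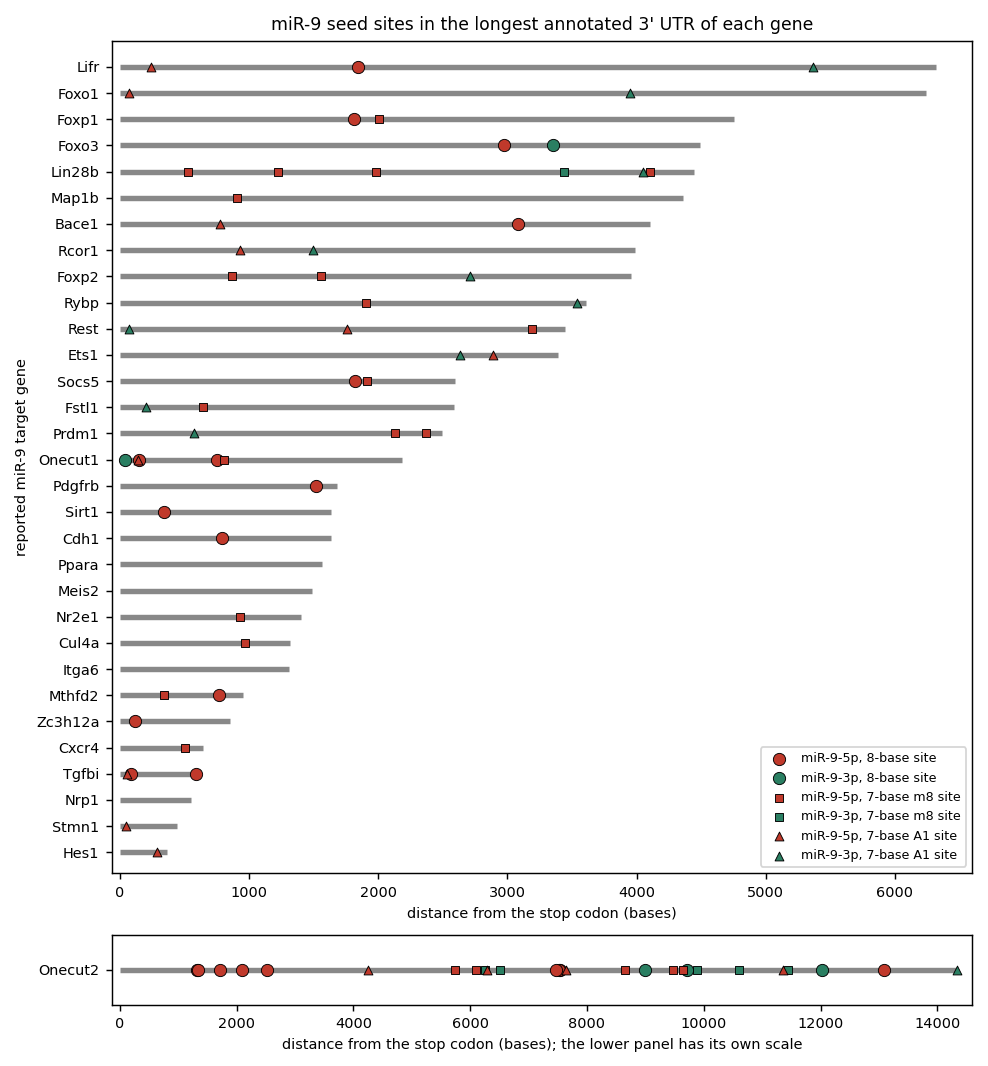
Sites of miR-9-5p (red) and miR-9-3p (green) along the longest annotated 3′ UTR of the 32 genes, with the distance from the stop codon in bases on the x axis and Onecut2 on its own scale. Circles are 8-base sites, squares 7-base sites that pair with seed base 8, and triangles 7-base sites followed by A. Onecut2 holds 18 of the 61 miR-9-5p sites, and 4 genes hold no site of either arm.

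The first lines give sites of the 5 genes with the smallest p-values among the members that have a 7- or 8-base miR-9-5p site: Lifr, Stmn1, Zc3h12a, Prdm1 and Sirt1. Itga6 would rank among them by p-value but has no such site in its longest 3′ UTR. Foxo3 and Socs5 are added as genes with 8-base sites and fold changes near 0. Not shown are a 7-base miR-9-3p site each of Lifr and Prdm1, the other miR-9-5p site of Prdm1 and the 7-base site of Socs5. Each line is 30 bases of 3′ UTR in GRCm38, read 5′ to 3′ on the gene's strand, with the match to the seed, and the following A where there is one, in capitals.
Lifr, miR-9-5p, chr15:7192994-7193023 (+): aatattccaagccagagccaacACCAAAGA
Lifr, miR-9-5p, chr15:7191383-7191412 (+): agttgaagctgtttttgattgagCCAAAGA
Zc3h12a, miR-9-5p, chr4:125119155-125119184 (-): aagcaggcaagggaatcctcaaACCAAAGA
Stmn1, miR-9-5p, chr4:134473425-134473454 (+): ctccccgaccccgtcctaaatatCCAAAGA
Prdm1, miR-9-5p, chr10:44437530-44437559 (-): atactcacttaattgtaggttaACCAAAGc
Sirt1, miR-9-5p, chr10:63320284-63320313 (-): gtaaagggaacagcttatctagACCAAAGA
Foxo3, miR-9-5p, chr10:42183349-42183378 (-): gctctagaacctgataccttgtACCAAAGA
Foxo3, miR-9-3p, chr10:42182969-42182998 (-): gcctttgaatctcttgggaaagAGCTTTAA
Socs5, miR-9-5p, chr17:87137042-87137071 (+): atgcctgagatgcagacctttaACCAAAGA

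In median and share of negative values, the targets stood close to all genes. Their median log2 fold change by the authors' deposited table was -0.12 (quartiles -0.48 and 0.18), beside -0.09 (quartiles -0.38 and 0.15) over all rows with a p-value. Negative values were found in 15 of 26, or 57.7%, where 59.8% of all rows with a p-value from the authors' deposited table were negative. At an adjusted p under 0.05, 1 of the 26 fell and none rose, against 0.166% of all rows that fell and 0.245% that rose. At an unadjusted p under 0.05, 3 were lower (Lifr, Zc3h12a and Prdm1) and 2 higher (Stmn1 and Itga6), against 4.05% and 3.87% of all rows. With 26 genes the counts are small, and no set test was run, because the members were chosen with earlier results of these data known. The counts therefore do not show whether the list differs from all genes. For the gene lists described below, counts of called genes are to be read beside these same shares of all rows. Lifr was also the one member called at an adjusted p under 0.10 (0.968% of all rows) and at the p-value threshold of 0.0001 that the design text names (0.299%). The single call rests on the Benjamini-Hochberg procedure: with the Benjamini-Yekutieli procedure, which allows for any dependence between genes, none was called and the adjusted p of Lifr was 0.177.

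**Figure D2:**
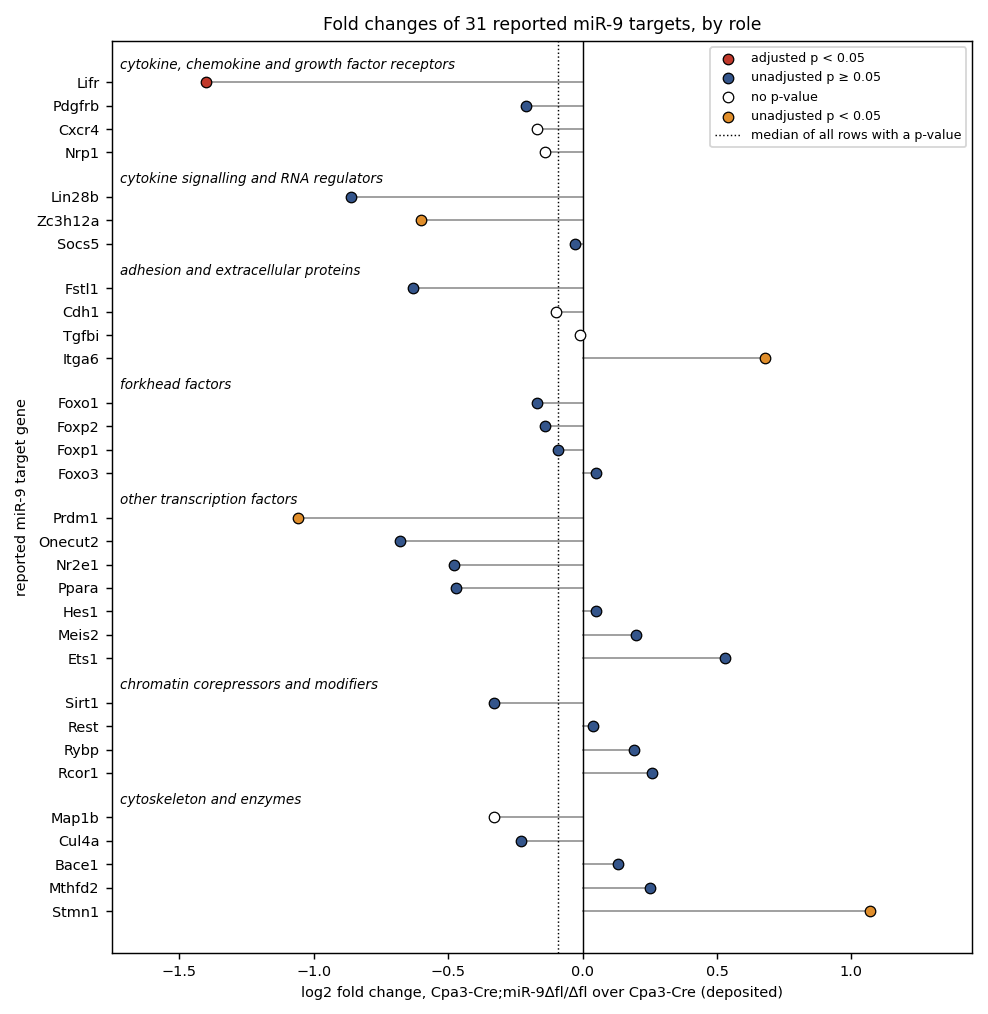
Log2 fold changes (x axis) of the 31 targets with a row in the authors' deposited table, grouped by role, with colours for the p-value and open circles where none is given. Lifr, at -1.40, is the lowest and Stmn1, at 1.07, the highest, and the dotted line marks the median of all rows with a p-value, -0.09.

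Of the 4 listed receptors of cytokines, chemokines and growth factors, only Lifr and Pdgfrb had a p-value. Lifr alone was called, where 0.166% of all rows fell. Lifr encodes the subunit that pairs with gp130, the product of Il6st, to form the receptor of leukaemia inhibitory factor. In the authors' deposited table Lifr fell by 1.40 on the log2 scale, or 2.63-fold, with p = 3.04e-05 and an adjusted p of 0.0166 over all genes, which placed it 44th from the smallest p-value. The gene has 22 exons in the deposited table and spans 7129559 to 7197489 on the plus strand of chromosome 15. Its 3′ UTR of 6320 bases holds an 8-base miR-9-5p site at bases 1847 to 1854 after the stop codon, a 7-base site at 237 to 243, and a 7-base miR-9-3p site at 5366 to 5372. Pdgfrb, a platelet-derived growth factor receptor with an 8-base site, had a log2 fold change of -0.21 by the authors' deposited table (p = 0.688). Cxcr4, the receptor of the chemokine CXCL12, and Nrp1, a co-receptor of vascular endothelial growth factor and semaphorins, stood at -0.17 and -0.14 by the authors' deposited table, with no p-value. Of 9 neuropilin and PDGF receptors and ligands with a p-value from the authors' deposited table, 8 were negative (59.8% of all rows were). Their median was -0.38 and none was called, where 0.166% of all rows fell and 0.245% rose. Pdgfra, the other PDGF receptor chain, had the smallest p-value there (-1.47, p = 0.00628, adjusted p = 0.274), followed by the ligand gene Pdgfa (-0.74, p = 0.063), by the authors' deposited table. The partners of Cxcr4, the scavenging receptor gene Ackr3 (-0.79, p = 0.13) and Cxcl12 (-0.55, p = 0.303), were not called either on the p-values of the authors' deposited table.

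Most partners of Lifr had values below 0, and none passed the test. The list of other LIF receptor pathway genes, which includes the reported target Socs5, held 17 with a p-value from the authors' deposited table. Of these, 16 were negative (59.8% of all rows were), with a median of -0.29 beside -0.09 for all rows, and none was called. At an unadjusted p under 0.05, 3 were lower, where 4.05% of all rows were. By the authors' deposited table the positive one was the kinase gene Tyk2 (0.25, p = 0.191). Il6, the interleukin-6 gene, stood at -0.88 (p = 0.0229, adjusted p = 0.484) and Il6st at -0.98 (p = 0.0363, adjusted p = 0.567) by the authors' deposited table. Socs3, a feedback inhibitor of this receptor family, stood at -0.55 by the authors' deposited table (p = 0.037). Osmr, the oncostatin M receptor subunit gene beside Lifr on chromosome 15, had a value of -0.99 with p = 0.0525 by the authors' deposited table. The kinase and transcription factor genes Jak1 (-0.03), Jak2 (-0.13) and Stat3 (-0.19) lay near the median of all rows by the authors' deposited table. Negative values were not particular to this list: 8 of 9 neuropilin and PDGF genes and 7 of 7 lymphocyte markers had them. By contrast, 4 of 12 REST-CoREST genes and 0 of 14 cell cycle genes were negative.

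Zc3h12a had the second smallest p-value among the targets with negative values. It encodes Regnase-1, an endoribonuclease that degrades messengers of inflammatory cytokines, Il6 among them. Its log2 fold change by the authors' deposited table was -0.60, or 1.52-fold lower, with p = 0.00299 and an adjusted p of 0.184, so it did not pass over all genes. Zc3h12a has a short 3′ UTR of 856 bases, with an 8-base miR-9-5p site at bases 117 to 124. The list of Regnase and related RNA decay and NF-kB feedback genes includes Zc3h12a. Of its 13 genes with a p-value from the authors' deposited table, 11 were negative (59.8% of all rows were), with a median of -0.47. No gene of this list was called, where 0.166% of all rows fell and 0.245% rose. The second smallest p-value in it was that of Il6. Tnfaip3, a feedback inhibitor of NF-kB, stood at -1.33 with no p-value from the authors' deposited table.

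The other regulators of cytokine signalling and RNA did not pass. Lin28b, which blocks maturation of the let-7 microRNAs and has 4 separate 7-base miR-9-5p sites, stood at -0.86 by the authors' deposited table (p = 0.108). Socs5, a suppressor of cytokine signalling with an 8-base and a 7-base site, was at -0.03 (p = 0.909) by the authors' deposited table. Within this group of 3 genes the fold changes followed neither the number nor the length of the sites.

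**Figure D3:**
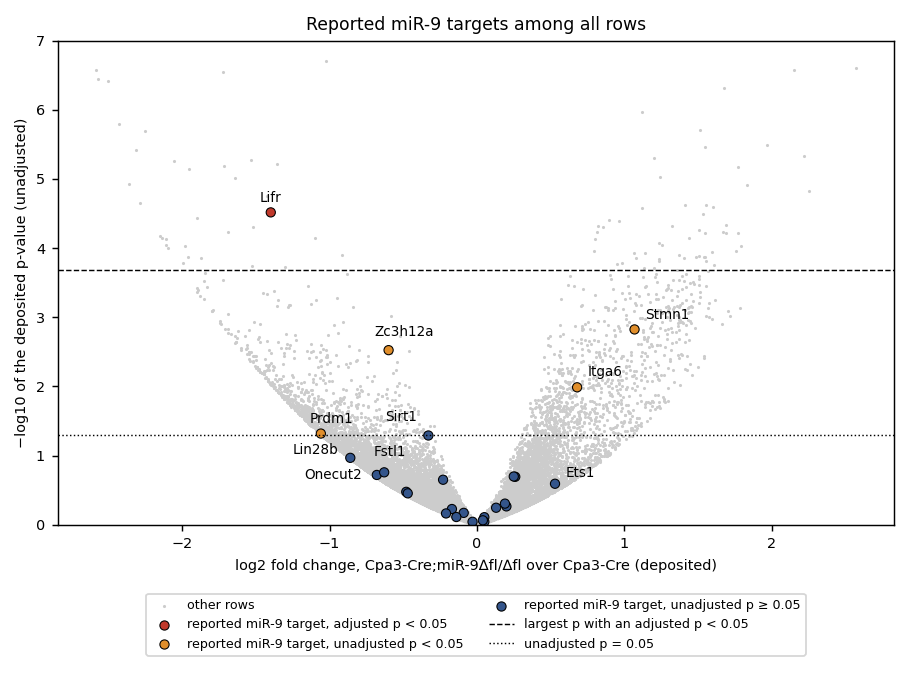
Log2 fold change (x axis) against the −log10 of the unadjusted p-value (y axis) for all rows with a p-value from the authors' deposited table, in grey, and the 26 targets in colour; 8 rows lie above the upper axis limit of 7. Lifr alone lies above the dashed line of the adjusted p, and Zc3h12a, Stmn1, Itga6 and Prdm1 lie between it and the dotted line at an unadjusted p of 0.05.

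Adhesion and extracellular proteins were split. Itga6, the laminin-binding integrin alpha 6 chain, had a log2 fold change of 0.68 by the authors' deposited table, 1.60-fold higher (p = 0.0103, adjusted p = 0.349). Its longest 3′ UTR holds a 6-base match at best, although another annotated 3′ UTR of the gene has a 7-base site. Fstl1, a secreted glycoprotein, stood at -0.63 by the authors' deposited table (p = 0.175). The values of Cdh1, which encodes E-cadherin, and Tgfbi, an extracellular matrix protein induced by TGF-beta, were -0.10 and -0.01 by the authors' deposited table, with no p-value. Cdh1 has 1 and Tgfbi 2 of the 8-base sites.

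The 4 forkhead factors showed no call and small values. Foxo1 and Foxo3 act downstream of PI3K and AKT, a pathway that KIT and the IgE receptor engage in mast cells. Foxo1 stood at -0.17 (p = 0.594) and Foxo3 at 0.05 (p = 0.78) by the authors' deposited table. Foxp1 was at -0.09 (p = 0.675) and Foxp2 at -0.14 (p = 0.775) by the authors' deposited table. Foxp1 shares 734 exon bases with Gm20696 on the same strand, so its value is uncertain to that extent. Both Foxo3 and Foxp1 have an 8-base miR-9-5p site, and Foxo3 also has an 8-base miR-9-3p site. Of 14 genes of the FOXO family and FOXO-regulated genes with a p-value from the authors' deposited table, 10 were negative (59.8% of all rows were). Their median was -0.24 and none was called, where 0.166% of all rows fell and 0.245% rose. The smallest p-values belonged to Foxo4 (-0.53, p = 0.0088, adjusted p = 0.323) and Txnip, a thioredoxin inhibitor (-0.81, p = 0.011, adjusted p = 0.357), by the authors' deposited table.

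Among the other transcription factors, Prdm1 had the lowest value. Prdm1 encodes BLIMP-1, a repressor that drives terminal differentiation of plasma cells. Its log2 fold change by the authors' deposited table was -1.06, 2.08-fold lower (p = 0.0481, adjusted p = 0.624), with 2 of the 7-base miR-9-5p sites in its 3′ UTR. Fold size and p-value did not go together here: Zc3h12a had a smaller fold and a smaller p-value. Onecut2, a homeodomain factor with 9 of the 8-base miR-9-5p sites in a 3′ UTR of 14356 bases, stood at -0.68 by the authors' deposited table (p = 0.191). Nr2e1, an orphan nuclear receptor of neural stem cells, was at -0.48 (p = 0.335), and Ppara, a nuclear receptor that controls fatty acid oxidation, at -0.47 (p = 0.352) by the authors' deposited table. Values above 0 were those of Hes1, an effector of Notch (0.05, p = 0.909), the homeobox gene Meis2 (0.20, p = 0.544) and Ets1 (0.53, p = 0.256) by the authors' deposited table. The FOXP, ONECUT and HES relatives gave 6 negative values of 10 with a p-value from the authors' deposited table (59.8% of all rows were negative). They had a median of -0.12, no call and no unadjusted p under 0.05. Onecut2 itself and Hey2, a Notch effector (-0.58, p = 0.211), had the smallest p-values of these by the authors' deposited table.

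Corepressors and chromatin modifiers lay between -0.33 and 0.26 by the authors' deposited table, and none passed. Rest, the repressor of neuronal genes, stood at 0.04 (p = 0.865) and its corepressor gene Rcor1, which encodes CoREST, at 0.26 (p = 0.203) by the authors' deposited table. Rybp, a subunit of Polycomb repressive complexes, was at 0.19 (p = 0.496) by the authors' deposited table. Sirt1, a NAD-dependent deacetylase with an 8-base site, had a value of -0.33, 1.26-fold lower, with p = 0.0513 and an adjusted p of 0.638 by the authors' deposited table. Of the 12 REST-CoREST genes, all with a p-value from the authors' deposited table, 4 were negative (59.8% of all rows were). None of the 12 was called, and the median was 0.05. Hdac1, a histone deacetylase gene of the complex, had the smallest p-value there (0.49, p = 0.0231, adjusted p = 0.485 by the authors' deposited table), followed by Rcor1. The 7 Polycomb RING partner genes with a p-value from the authors' deposited table lay between -0.14 and 0.19, with none called; Pcgf3 (0.19, p = 0.322) and Rybp had the smallest p-values.

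Stmn1 had the highest value of all the targets. It encodes stathmin, which destabilises microtubules and is abundant in dividing cells. Its log2 fold change by the authors' deposited table was 1.07 (2.10-fold higher), with p = 0.0015 and an adjusted p of 0.125, so it did not pass over all genes. The 3′ UTR of Stmn1, 440 bases long, has a 7-base miR-9-5p site at bases 45 to 51. Stmn1 shares 66 of its 1922 exon bases with Gm23634 on the same strand, so its value is uncertain to that extent. Of 14 cell cycle genes with a p-value from the authors' deposited table, 14 were positive, with a median of 1.34, and 2 rose, where 0.245% of all rows did: Cdk1 (1.55, adjusted p = 0.0245) and Rrm1 (1.23, adjusted p = 0.0396). At an unadjusted p under 0.05, 12 of the 14 were higher by the authors' deposited table, beside 3.87% of all rows. The part of cell division in the value of Stmn1 was not tested. A list of stathmin, MAP1 and other microtubule-binding protein genes held 7 with a p-value from the authors' deposited table. Stmn1 was the one gene among them with an unadjusted p under 0.05. The others lay between -0.40 (Stmn4, p = 0.429) and 0.19 (Map4) by the authors' deposited table.

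The remaining enzymes and Map1b did not pass. Mthfd2, a mitochondrial folate enzyme with an 8-base and a 7-base site, stood at 0.25 (p = 0.201) by the authors' deposited table. A list of mitochondrial and cytosolic folate enzymes, Mthfd2 included, gave 5 positive values of 7 with a median of 0.53. At an unadjusted p under 0.05, 4 were higher (3.87% of all rows were), and none was called. By the authors' deposited table these were Mthfd1l (0.94, p = 0.000587, adjusted p = 0.0816), Mthfd1 (0.69, p = 0.00557, adjusted p = 0.256), Shmt1 (0.58, p = 0.0349) and Shmt2 (0.53, p = 0.0409). Mthfd1 and Shmt1 encode cytosolic enzymes. The negative values were those of the mitochondrial enzyme genes Aldh1l2 (-0.31) and Mthfd2l (-0.10) by the authors' deposited table. Cul4a, a ubiquitin ligase scaffold, was at -0.23 (p = 0.224), and Bace1, the beta-secretase, at 0.13 (p = 0.569) by the authors' deposited table. Bace1 shares 975 of its 6348 exon bases with Rnf214 on the opposite strand. The libraries were stranded, per the labels, but no source here states whether reads were counted by strand, and without that the reads over the shared bases cannot be told apart. Map1b, a microtubule-associated protein of neurons, stood at -0.33 with no p-value from the authors' deposited table.

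**Figure D4:**
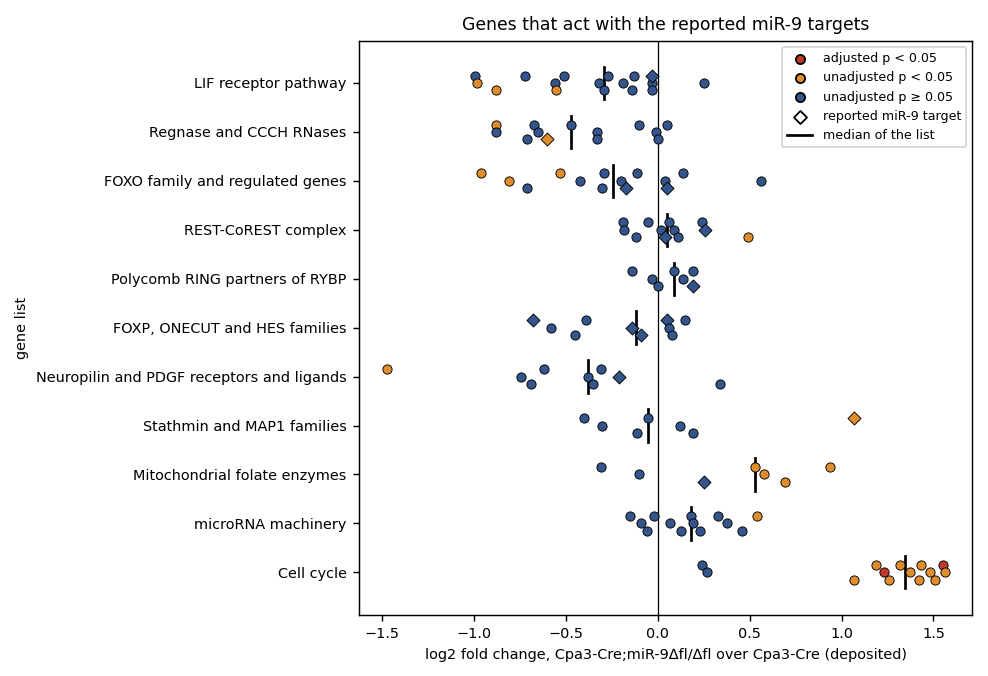
Log2 fold changes (x axis) of the genes with a p-value in 11 gene lists (y axis), with diamonds for reported targets, circles for the other genes, colours for the p-value and a bar at each list's median. Red points, called at an adjusted p under 0.05, appear only in the cell cycle list (Cdk1 and Rrm1), and the medians run from -0.47 for the Regnase list to 1.34 for the cell cycle.

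Fold changes were then read by the longest miR-9-5p site in the 3′ UTR. For this, rows of the table were kept only where the gene had an annotated 3′ UTR and an unrepeated symbol. The 10 targets with an 8-base site and a p-value had a median of -0.15 by the authors' deposited table, with 7 negative values and 1 call, Lifr. All 671 genes of the table with such a site and a p-value had a median of -0.10, 62% negative values, 2 that fell and 2 that rose by the authors' deposited table. For a 7-base site as the longest, the 13 targets had a median of -0.14 with 7 negative values, beside -0.11 and 62.5% for 2675 genes of the authors' deposited table. Genes with an annotated 3′ UTR and no site, not even a 6-base match, had a median of -0.08 by the authors' deposited table (n = 9725). At an unadjusted p under 0.05, 44 of the 671 genes with an 8-base site were lower and 29 higher, by the authors' deposited table. With a 7-base site as the longest, 151 of 2675 were lower and 121 higher, and with a 6-base match 124 of 2359 were lower and 116 higher. Over all rows with a p-value, 4.05% were lower and 3.87% higher. Of the 9725 genes with no site, 431 were lower and 492 higher at that threshold, and 58.8% had negative values in the authors' deposited table. No test was run on the difference between these classes, and they were not matched for 3′ UTR length. Of the 12 targets with a 7- or 8-base miR-9-3p site and a p-value by the authors' deposited table, 7 were negative with a median of -0.16, and of the 14 without one 8 were negative with a median of -0.06.

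**Figure D5:**
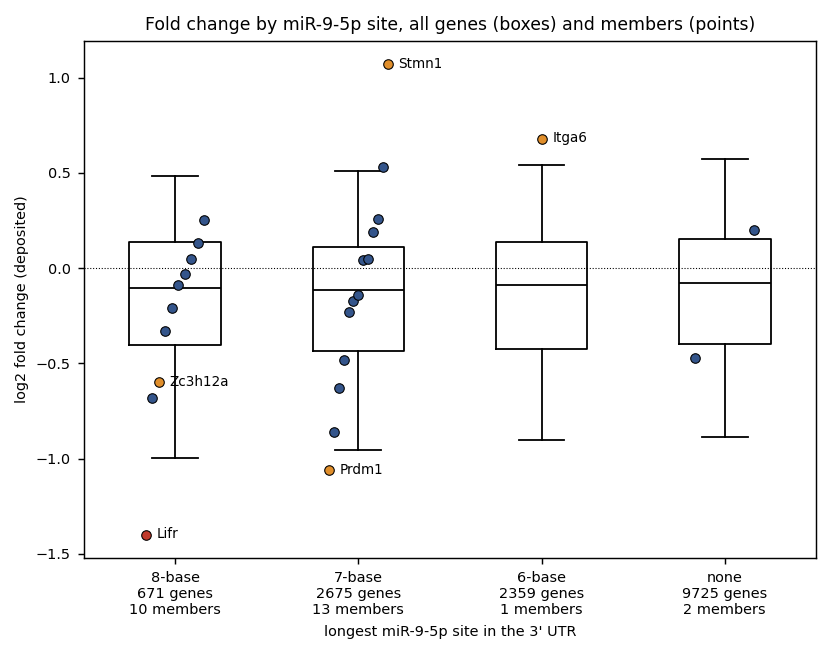
Log2 fold changes (y axis) by the longest miR-9-5p site in the 3′ UTR (x axis). Boxes hold all genes with a p-value, an annotated 3′ UTR and an unrepeated symbol (median, quartiles, whiskers at the 5th and 95th percentiles). Points are the targets, coloured by p-value as in the other plots (red for an adjusted p under 0.05, orange for an unadjusted p under 0.05, blue otherwise). The medians run from -0.11 for a 7-base site to -0.08 for none, and Lifr is the lowest point in the 8-base class.

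The genes that process microRNAs and carry out silencing were measured as well. Of 13, all with a p-value from the authors' deposited table, 9 were positive, while 59.8% of all rows were negative. The median of the 13 was 0.18 and none was called. Prkra, a partner of Dicer, had the smallest p-value (0.54, p = 0.0485, adjusted p = 0.625), followed by Ago1, an Argonaute gene (0.46, p = 0.0595), by the authors' deposited table. Dicer1 stood at 0.23 and Drosha at 0.13 by the authors' deposited table.

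How much of each target the mast cells contain was not analysed here, because the columns of values per library carry names that match no sample's labels. The deposited p-value is empty in 5.78% of all rows and for 5 targets (Cdh1, Nrp1, Tgfbi, Cxcr4 and Map1b), with no reason given. All 14 mast cell markers had one in the authors' deposited table, while 9 of 10 neutrophil and 9 of 10 monocyte and macrophage markers with a row had none. All 7 T and B lymphocyte markers with a row, among them Cd3e, had a p-value listed in the authors' deposited table, so the presence of a p-value was not read as a sign of expression. The mast cell markers lay between -0.12 and 1.60 by the authors' deposited table. Of the 14, 1 was called, Tpsb2, a tryptase gene that rose, where 0.245% of all rows rose. The lymphocyte markers had 7 negative values of 7 with a median of -0.53 in the authors' deposited table. The 6 stromal and fibroblast markers, Pdgfrb included, had 5 with a median of -0.36. Of all rows, 59.8% were negative. None of either list was called, where 0.166% of all rows fell and 0.245% rose. Within these lists Cd3d (-1.03, p = 0.00887, adjusted p = 0.325) and Pdgfra had an unadjusted p under 0.05 by the authors' deposited table. The 4 endothelial markers had a median of -0.25 and the 2 epithelial markers with a p-value a median of -0.53 by the authors' deposited table, again with no call. Apoe, the monocyte and macrophage marker with a p-value, stood at -1.31 by the authors' deposited table (p = 0.00326, adjusted p = 0.19). The part of other cell types in the values of Lifr and the other targets was not tested.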

How the data were processed

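One table of gene rows was used for 5 samples in 2 groups, mapped by their titles. The submitters' processing notes name the tools DESeq, DESeq2, Cuffdiff, HTSeq and STAR and the builds mm10 and GRCm38, with neither versions nor roles. The authors deposited a log2 fold change, a signed linear fold (a score here, within 0.001 of 2 raised to the log2 value in 100% of rows) and an unadjusted p-value, per the file headers. No source here states whether folds were shrunken towards 0, which would make folds of scarce genes too small. Gene length, in bases, also comes with each row. The 5 columns of values per library match no label and were not used, so no test of expression, standard error, depth or level was computed. The depth stated in the labels is about 70000000 reads per sample.

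P-values were adjusted with the Benjamini-Hochberg procedure over the 24071 rows with one (Python 3.11.15, numpy 2.4.6, pandas 2.3.3). Sites were searched in GENCODE M21 3′ UTRs, after the annotated stop codon, of 44761 protein-coding transcripts. Of 31 members, 31 matched M21 by symbol and chromosome, 25 of them with both ends within 1000 bases. Both steps were tested on simulated data.

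The members and lists were chosen with earlier results of these data known, so no p was adjusted over the list and no set test was run. All 32 members are named. From the pathway lists, called genes and those with the 2 smallest p-values are named. Further genes, and those named from the cell type marker lists, were chosen after their values were seen.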

Additional observations from a re-analysis of the deposited data

How the results depend on the processing

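The count of 1 called member, Lifr, held at an adjusted p under 0.10, at the authors' p-value threshold of 0.0001 and over protein-coding rows alone, where the adjusted p of Lifr was 0.0122. With Benjamini-Yekutieli adjustment the count was 0, with 5 members at an unadjusted p under 0.05. Zc3h12a, Stmn1, Prdm1 and Itga6 were called under none of these settings, and the adjusted p of Stmn1 over protein-coding rows was 0.0919. The median of the members, -0.12, became -0.02 after subtracting the median of all rows with a p-value, -0.03 after subtracting that of protein-coding rows, and -0.14 with the members that lack a p-value. Counting 8-base sites alone left 13 members with a miR-9-5p site and 3 with a miR-9-3p site. Sites from 6 bases up gave 29 and 16, and any annotated 3′ UTR gave 29 and 13. Within the exons of the deposited table, an alternative chosen after seeing the data, the counts were 27 and 11. No paired analysis was possible because the columns of values per library match no sample's labels, and for the same reason alternatives that leave out a replicate, change the normalization, the pseudocount or the filter on low values were not run. Depth and signal per gene were not analysed, so what they limit is not known.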

Other observations

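Within 500 kb of Lifr, 6 other rows with a p-value were present. None was called, where 0.166% of all rows fell and 0.245% rose, so a count of 0 among 6 rows does not set Lifr apart from its neighbours. Both genes beside Lifr had negative values by the authors' deposited table, Osmr at -0.99 (p = 0.0525, adjusted p = 0.64) and Egflam at -1.02 (p = 0.0535, adjusted p = 0.644). The smallest p-value of the 6 was that of Gm7666, at 0.638 (p = 0.00669, adjusted p = 0.281), and Rictor stood at -0.08, Gm2245 at -0.34 and Fyb at 0.26 by the authors' deposited table. Around the other 30 targets with a row, 398 distinct rows of other genes with a p-value lay within the same distance and none was called, beside the same shares of all rows.

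In 12 of the 32 target genes the 3′ UTR holds 2 or more 7- or 8-base miR-9-5p sites. Spacing between sites was not compared across genes. In Onecut1, which has no row in the authors' deposited table, a 7-base and an 8-base miR-9-5p site lie at bases 141 to 147 and 149 to 156 of the 3′ UTR, 1 base apart. Onecut2 holds 18 miR-9-5p and 9 miR-9-3p sites of 7 or 8 bases. In all, 13 of the 32 genes have a 7- or 8-base site of both arms.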
